A study of Mus musculus with 15 samples.

Results

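Mouse embryonic fibroblasts (MEFs) that lack Mta1 and had Mta1 transfected back into them, Mta1-KO/Mta1, were compared with wild type MEFs (WT) to find which transcripts still differed from WT after re-expression and which differed in the re-expression line alone. The comparison rests on 6 of the 15 arrays of the study, 3 of Mta1-KO/Mta1 (genotype Mta1-/-, labelled Mta1 reexpression) and 3 of WT. All 16755 probe rows of the deposited table were tested, and none was left out. The 3 arrays of Mta1-KO, the same Mta1-/- genotype with no Mta1 put back, served to tell what the re-expression line shares with its parent. These 3 groups are C57BL/6J fibroblasts of E9.0 embryos. The 3 P53-KO/Mta1 arrays (genotype P53-/-, labelled Mta1 over expression) and the 3 P53-KO arrays are fibroblasts of E12.5 embryos of the same strain. They are given as further levels, add to the estimate of spread that the tests share, and enter a rule that calls against every other group. The sources used here do not give the construct, its promoter or whether the transfected cells were 1 clone. The WT and Mta1-KO arrays are labelled as biological replicates and the Mta1-KO/Mta1 arrays only as replicates, while the paper calls the triplicates of every group biological. No source used here ties an array to an embryo or a culture, so the tests see only how these arrays vary.

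MTA1 is a subunit of the NuRD complex, which joins nucleosome remodeling with histone deacetylation at promoters and enhancers and is best known for holding genes in a low state. It acts as a co-regulator, brought to chromatin by transcription factors. MEFs are a mixed mesenchymal culture grown from the body of the embryo, and they secrete matrix, answer interferons and stop dividing through P53 and the products of the Ink4/Arf locus.

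Mta1 has a single row. Values throughout are normalized log2 values relative to the median of the row over the 15 arrays, so they carry differences between arrays and no absolute level. Mta1 read -1.13, -1.35 and -1.28 in Mta1-KO/Mta1, -1.06, -1.08 and -1.10 in Mta1-KO, and 0.08, -0.06 and 0.00 in WT. The arrays labelled Mta1-KO/Mta1 were thus no higher than those of Mta1-KO (difference -0.17, adjusted p = 0.0669), and neither overlapped WT (log2 difference from WT -1.26 ± 0.07, standard error, adjusted p = 1.50e-09 from limma). The label of re-expression is not borne out by this row. The sources used here do not say whether its probes lie in the deleted part of the gene or in the introduced sequence, so the row alone cannot settle whether Mta1 was expressed (the study also probed MTA1 protein by Western blot, which was not analysed here), and "re-expression line" below means the arrays so labelled.

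The array medians lay between -0.02 and 0.02 in all 15 arrays. Transcripts of the Y-linked genes Eif2s3y and Kdm5d, looked up after their values were seen, were within a fold of 2 among the 3 lines compared and far lower in the P53 lines. Eif2s3y read 0.64, 0.59 and 0.64 in Mta1-KO/Mta1, 0.32, 0.56 and 0.45 in Mta1-KO, and 0.00, 0.04 and -0.09 in WT, while the 6 arrays of the P53 lines lay between -4.10 and -3.85. The P53 lines therefore differ from the others in embryonic day and in Y-linked transcripts as well as in genotype, which cannot be told apart in the levels given for them.

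The re-expression line differed from WT in 961 rows, where a row was called if it differed at least 2-fold and its p, adjusted by Benjamini-Hochberg, was under 0.05. This is 5.74% of the rows tested. Of these, 564 were higher (3.37% of rows) and 397 lower (2.37% of rows) in Mta1-KO/Mta1. The largest differences were rises: 194 rows rose and 66 fell by over 4-fold, and 26 rose and 11 fell by over 16-fold. The median size of a called difference was 1.42 on the log2 scale, a fold of 2.68, against a median difference over all rows of 0.01. The 3 arrays of one group lay wholly above or below the 3 of the other in all 961 called rows, and in 7877 rows (47%) of the table. Without the minimum fold, 6453 rows (38.5%) passed the adjusted p, with more lower (3817) than higher (2636), so the excess of higher over lower calls belongs to the rows with large differences.

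**Figure D1:**
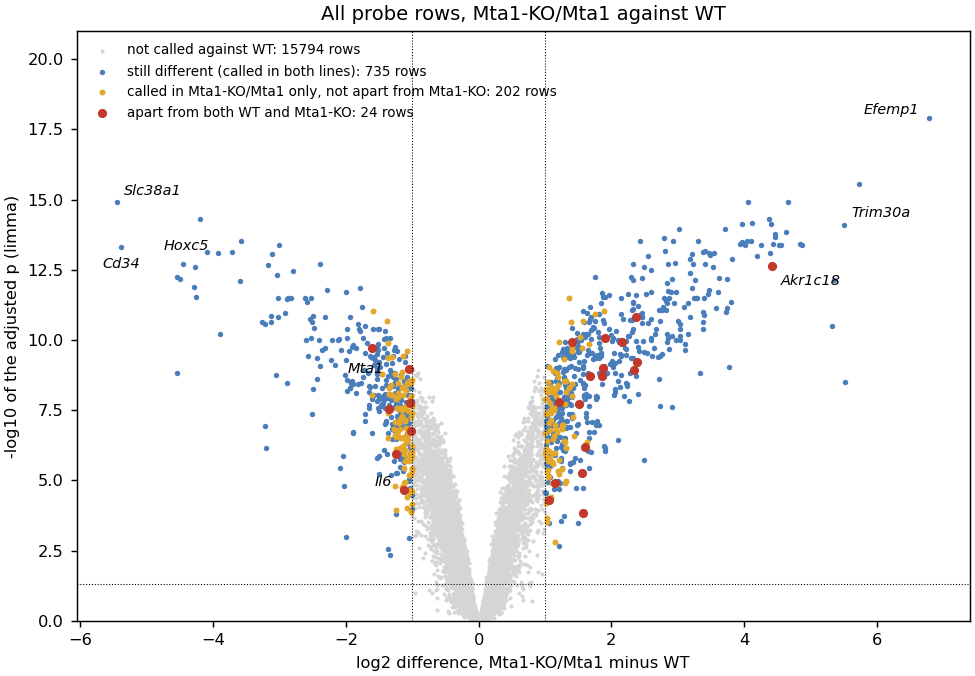
Each point is 1 of the 16755 probe rows, with the log2 difference Mta1-KO/Mta1 minus WT across and -log10 of the limma adjusted p up the page; dotted lines mark a fold of 2 and an adjusted p of 0.05. The 735 rows also called in Mta1-KO against WT hold 255 of the 260 points beyond 4-fold, and Akr1c18 is the farthest out of the 24 rows set apart from both WT and Mta1-KO.

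Most of these differences were already present in Mta1-KO. Mta1-KO differed from WT in 1112 rows (6.64% of rows), and 735 rows, 457 higher and 278 lower, were called the same way in both lines. They are 76.5% of the rows called in Mta1-KO/Mta1 and 66.1% of those called in Mta1-KO. No row was called in opposite directions. Both comparisons use the same 3 WT arrays, so these counts describe the rows and do not measure how alike the lines are. The direct comparison of Mta1-KO/Mta1 with Mta1-KO, in which WT takes no part, called 186 rows (1.11% of rows).

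Among the 735 rows still different, the median size was 1.61 in Mta1-KO/Mta1 and 1.78 in Mta1-KO. Mta1-KO/Mta1 lay nearer to WT than Mta1-KO did in 447 rows and farther from it in 288. In the direct comparison of the 2 lines 49 of the 735 were called towards WT, 8 were called further away from it and 678 were not called. By adjusted p alone, 267 moved towards WT, 83 moved away and 385 passed in neither direction. The WT arrays lay beyond all 12 other arrays, the P53 lines included, in 501 of the 735 rows (68.2%), against 18.3% of all rows. The 6 arrays of Mta1-KO/Mta1 and Mta1-KO together lay beyond the 9 others in 448 (61%), against 11.4% of all rows. The WT arrays chose these rows, so nothing is read from the shares. A row can have both placements, as Efemp1 does below.

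Efemp1, which encodes the secreted matrix protein fibulin-3, had the largest difference in the table. It read 1.24, 1.22 and 1.28 in Mta1-KO/Mta1, 1.10, 1.21 and 1.19 in Mta1-KO, and -5.49, -5.55 and -5.57 in WT. The 2 Mta1-/- lines were level with each other and all 6 of their arrays were far above WT (110.2-fold in Mta1-KO/Mta1, log2 difference 6.78 ± 0.05, adjusted p = 1.22e-18). The P53 lines lay between, at -1.32, -1.36 and -1.30 in P53-KO/Mta1 and -0.01, 0.08 and 0.00 in P53-KO.

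Slfn3, a schlafen family gene, and Ripk3, the kinase that sets off necroptosis, were high in both Mta1-/- lines. Slfn3 read 4.67, 4.66 and 4.77 in Mta1-KO/Mta1, 4.92, 5.05 and 4.77 in Mta1-KO, and -0.15, 0.00 and -0.29 in WT, with all P53 arrays between -0.24 and 0.03. Ripk3 read 2.43, 2.83 and 2.78 in Mta1-KO/Mta1, 2.88, 2.91 and 2.81 in Mta1-KO, and -1.98, -1.85 and -1.73 in WT. Neither gene differed between the 2 Mta1-/- lines by the test (adjusted p = 0.107 for Slfn3 and 0.152 for Ripk3), and for both the fold against WT was over 20 (28.7 and 23.1 in Mta1-KO/Mta1). Gpnmb, a lysosomal membrane glycoprotein, and Epb41l4a, a FERM domain protein, rose by 4.87 ± 0.09 and 4.62 ± 0.08, a little more than in Mta1-KO (4.49 and 4.16). Itm2a, a membrane protein of differentiating mesenchyme, rose by 4.47 ± 0.08.

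The largest fall was that of Slc38a1, the neuronal-type glutamine transporter SNAT1. It read -4.16, -4.26 and -4.23 in Mta1-KO/Mta1, -4.08, -4.30 and -4.32 in Mta1-KO, and 1.28, 1.18 and 1.22 in WT. Both Mta1-/- lines sat at the bottom with no overlap (43.5-fold lower in Mta1-KO/Mta1 than in WT, adjusted p = 1.20e-15), and the direct comparison of the 2 lines gave 0.01 (adjusted p = 0.931). Cd34, a surface sialomucin of progenitors and endothelium, read -3.31, -3.16 and -3.29 in Mta1-KO/Mta1, -2.97, -3.21 and -3.28 in Mta1-KO, and 2.19, 2.18 and 2.04 in WT. Mmp16, a membrane-anchored matrix metalloproteinase, fell by 4.29 ± 0.12, and Tnfrsf11b, the decoy receptor osteoprotegerin, by 4.20 ± 0.06. Rps6ka6, a ribosomal S6 kinase, fell by 4.49 ± 0.11. The transcription factor Sox2 read -3.00, -3.04 and -2.65 in Mta1-KO/Mta1, -3.07, -3.13 and -3.10 in Mta1-KO, and 1.34, 1.45 and 1.28 in WT.

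For other genes that fell, WT was above all 12 other arrays and the Mta1-/- lines did not stand apart from the P53 lines. WT was also above all 12 others in Slc38a1, Cd34, Mmp16, Tnfrsf11b and Rps6ka6, but not in Sox2. In those 5 genes the P53 lines lay between. Gatm, which makes the creatine precursor guanidinoacetate, read -0.01, 0.00 and -0.02 in Mta1-KO/Mta1, -0.01, -0.03 and 0.02 in Mta1-KO, and 4.76, 4.68 and 4.14 in WT. The P53 arrays lay with the Mta1-/- lines, between -0.06 and 0.06. Fmo1, a flavin monooxygenase, and Sorbs2, an adaptor of actin and focal contacts, fell by 3.71 ± 0.08 and 3.59 ± 0.09 in the re-expression line, against 3.17 and 3.04 in Mta1-KO, and in both the WT arrays were again beyond all 12 others. The same placement of WT held for 20 of the 24 most changed genes still different from WT (83.3%), against 68.2% of the 735 rows and 18.3% of all rows. These 24 were picked by their distance from WT, so nothing is read from this count.

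**Figure D2:**
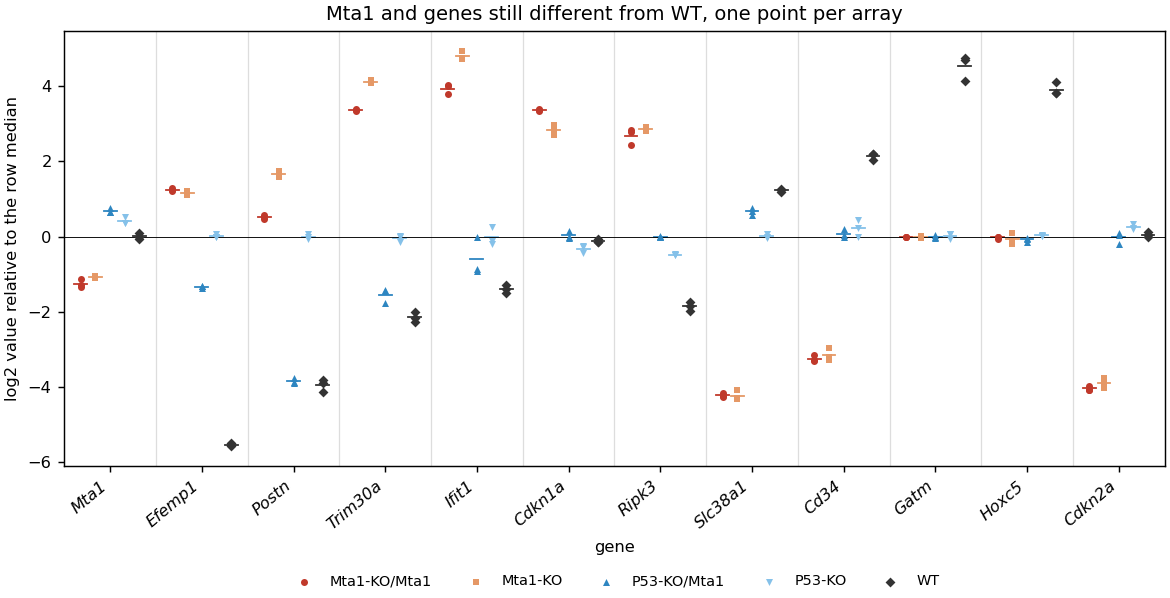
Log2 values relative to the row median for Mta1 and 11 genes still different from WT, 1 point per array and a short line at the mean of each group of 3, with Mta1-KO/Mta1 left and WT right within each gene. In all 12 genes the Mta1-KO/Mta1 points sit nearer to those of Mta1-KO than to WT; in Gatm and Hoxc5 the P53 lines sit with them, while in Cdkn1a and Cdkn2a the P53 lines sit with WT.

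Of the 33 gene lists, the interferon-stimulated genes had the most members called. Interferons act through receptors coupled to JAK kinases, and many of their target genes carry a short promoter element, the interferon-stimulated response element, whose core repeats the letters GAAA. Of 36 list members with a row, 30 rose and none fell (83.3% called, against 5.74% of all rows), with a median difference of 2.23 against 0.01 over all rows. In Mta1-KO 33 had risen, with a median of 2.84. Trim30a, a TRIM protein that restrains innate signaling, read 3.33, 3.37 and 3.40 in Mta1-KO/Mta1, 4.10, 4.16 and 4.09 in Mta1-KO, and -2.26, -1.99 and -2.17 in WT. Ifit1, which binds viral RNA lacking cap methylation, read 4.02, 4.0 and 3.78 in Mta1-KO/Mta1, 4.93, 4.71 and 4.75 in Mta1-KO, and -1.50, -1.29 and -1.39 in WT. In both genes the re-expression line lay below Mta1-KO and far above WT (45.5-fold and 40.1-fold over WT).

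RefSeq promoter windows on GRCm38.p6 were searched over the 250 bases before the start for GAAA, any 2 bases, GAAA on either strand, with overlapping matches allowed. Stretches around the matches are shown for 6 of the interferon-list genes that rose, and these include every such gene with 2 matches. They read 5′ to 3′ on the gene's strand, with the matched letters in capitals (TTTC on the sense strand is GAAA on the other).
Trim30a (chr7:104465205-104465244, minus strand): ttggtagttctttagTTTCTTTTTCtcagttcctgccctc
Ifit1 (chr19:34640770-34640828, plus strand): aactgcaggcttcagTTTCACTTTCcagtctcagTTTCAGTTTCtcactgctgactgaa
Gbp3 (chr3:142559984-142560029, plus strand): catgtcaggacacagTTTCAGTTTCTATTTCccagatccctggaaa
Irgm1 (chr11:48871421-48871465, minus strand): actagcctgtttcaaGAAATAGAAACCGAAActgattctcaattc
Ddx60 (chr8:61928019-61928086, plus strand): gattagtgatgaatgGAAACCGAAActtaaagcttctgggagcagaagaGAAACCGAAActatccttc
Bst2 (chr8:71537572-71537617, minus strand): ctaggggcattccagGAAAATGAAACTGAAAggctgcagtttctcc
The letters occur in 11 of the 25 called members of the 2 interferon lists that have a promoter window (44%). They occur in 26 of all 374 called genes that were higher (6.95%), a count that includes those 11, and in 7 of 281 that were lower (2.49%). Of 11894 tested genes with a window, 395 hold them (3.32%). Ifit1, Gbp3, Irgm1, Ddx60 and Bst2 carry 2 matches each and Trim30a 1. The others of the 11, Gbp7, Gbp2, Tgtp1, Rsad2 and Stat2, are not shown and carry 1 match each. A match is a description of the letters and not evidence of binding.

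The members that rose included sensors, regulators and effectors of the interferon response. Among the sensors of foreign RNA, Ifih1 rose by 2.60, Ddx58 by 2.78, Ddx60 by 3.38 and Dhx58 by 1.51. The regulators Irf7, Irf9 and Stat2 rose by 2.37, 2.11 and 1.55. Among the effectors, Rtp4 rose by 4.44 ± 0.08, Oasl2 by 4.25, Parp14 by 3.82, Bst2 (tetherin, which holds budding virus at the membrane) by 2.91 and Rsad2 (viperin) by 1.76. The fall back towards WT was uneven: 5 of the 36 were called lower in Mta1-KO/Mta1 than in Mta1-KO, none higher. Ifi27l2a had the widest gap between the lines, with a difference from WT of 0.41 in Mta1-KO/Mta1 (not called) against 3.59 in Mta1-KO, and Ifi27 (0.78 against 1.60) and Ifi35 (0.79 against 1.40) were the other members called only in Mta1-KO.

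Interferon-inducible GTPases, which coat and break the vacuoles of intracellular pathogens, rose in 6 of the 7 members with a row, out of 17 listed. This is 85.7% called, against 5.74% of all rows, with a median of 2.72. Gbp7 read 3.08, 2.91 and 3.01 in Mta1-KO/Mta1, 3.54, 3.68 and 3.49 in Mta1-KO, and -1.14, -0.84 and -1.05 in WT. Gbp3 rose by 3.74 ± 0.10 and Irgm1 by 3.46 ± 0.10. Gvin1 was near the threshold at 1.05, against 3.43 in Mta1-KO. Genes of these families resemble each other in sequence, as do those of the Slfn, Pcdhb, Aldh1a and Akr1c families below, so signal shared between copies cannot be told apart on the array.

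In antigen processing 4 of the 15 members with a row, out of 30 listed, rose and none fell (26.7%, median 0.48). In Mta1-KO 7 of them rose (median 0.87). Psmb9, an immunoproteasome subunit, read 0.36, 0.74 and 0.53 in Mta1-KO/Mta1, 2.62, 2.61 and 2.96 in Mta1-KO, and -0.78, -0.80 and -0.56 in WT. The re-expression line was above WT by 1.25 ± 0.11 and below Mta1-KO by a log2 difference of -2.19 (adjusted p = 1.23e-08). Tap1, the peptide transporter, had a difference from WT of 1.24 ± 0.09 in Mta1-KO/Mta1 against 2.79 in Mta1-KO. Psmb8, another immunoproteasome subunit, kept more of its rise, at 2.82 ± 0.09 against 3.79. Tap2, Tapbp and B2m, with 0.47, 0.65 and 0.94, were called only in Mta1-KO.

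Acute phase and complement genes rose in 6 of 17 members and fell in 1 (41.2% called, median 0.22). Serpina3n, a serine protease inhibitor, read 2.14, 2.26 and 2.27 in Mta1-KO/Mta1, 2.81, 2.91 and 2.91 in Mta1-KO, and -3.50, -3.14 and -2.73 in WT, so that the lines did not overlap and WT was lowest. Lbp, which presents lipopolysaccharide to its receptor, rose by 3.46 ± 0.10 and the siderophore-binding protein Lcn2 by 2.84 ± 0.09. Both were lower than in Mta1-KO (4.82 and 3.64). The single fall was that of Il6, described below.

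Chemokines and cytokines moved both ways, with 8 of 39 higher and 2 lower (25.6%, median 0.21). Cxcl10, the interferon-induced CXCR3 ligand, read 1.84, 1.78 and 1.75 in Mta1-KO/Mta1, 1.51, 1.59 and 1.44 in Mta1-KO, and -1.26, -1.24 and -1.59 in WT. Cxcl16, a membrane-bound chemokine, rose by 3.10 ± 0.14. Cxcl5, a neutrophil chemokine, went the other way and lay further from WT than in Mta1-KO: -1.58, -1.55 and -1.35 in Mta1-KO/Mta1, -0.01, 0.00 and 0.04 in Mta1-KO, and 2.12, 2.16 and 1.98 in WT. Its difference from WT was -3.58 ± 0.07 against -2.07 in Mta1-KO, and the direct difference between the lines, -1.50, was called (adjusted p = 3.15e-09).

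Matrix proteins rose in 17 of 58 members and fell in 3 (34.5% called, median 0.21). In Mta1-KO 27 had risen, with a median of 0.92, and 12 members were called only there. After Efemp1, the most changed were Nid1, Dcn, Postn and Lama4. Nid1, which links laminin to collagen IV, read 0.05, 0.01 and -0.01 in Mta1-KO/Mta1, 0.14, 0.25 and 0.09 in Mta1-KO, and -4.62, -4.69 and -4.63 in WT, with the P53 arrays between -0.16 and 0.16. WT thus stood alone for Nid1, and likewise for Dcn, the collagen-binding proteoglycan decorin, which rose by 4.55 ± 0.09. Postn, periostin, read 0.46, 0.52 and 0.57 in Mta1-KO/Mta1, 1.60, 1.75 and 1.63 in Mta1-KO, and -3.89, -3.81 and -4.13 in WT. Here P53-KO/Mta1, at -3.75, -3.89 and -3.88, lay with WT. The laminin chain Lama4 rose by 4.06, Col6a3 by 1.89, Lamb1 by 1.75 and Col1a1 by 1.52.

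Several matrix genes differed from WT by less in the re-expression line than in Mta1-KO. Aspn, the proteoglycan asporin, differed from WT by 1.34 against 4.68 in Mta1-KO, Prelp by 1.66 against 3.53, and Mgp by 1.20 against 2.60. Matn2 (0.19 against 1.78), Fbln5 (0.17 against 1.19) and Col6a1 (0.38 against 1.36) were called only in Mta1-KO. The falls were Col4a6 (-1.78), Emilin1 (-1.35) and Tgfbi (-1.18), the last with -0.20 in Mta1-KO. Of 30 matrix proteases and inhibitors 6 rose and 2 fell (26.7%, median 0.28): Adamts5, an aggrecanase, rose by 2.33 ± 0.07, Mmp14 by 1.43 and Adamts1 by 1.33. Timp3, an inhibitor of metalloproteinases held in the matrix, differed from WT by -1.08 against -3.60 in Mta1-KO.

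In the list of P53 targets 8 of 28 members rose and 1 fell (32.1% called, median 0.23). The fall was that of Cdkn2a, which encodes an activator of P53 and is described below. Cdkn1a, the P21 inhibitor of cyclin-dependent kinases, read 3.39, 3.36 and 3.35 in Mta1-KO/Mta1, 2.70, 2.86 and 2.96 in Mta1-KO, and -0.14, -0.06 and -0.15 in WT. Its difference from WT was larger in the re-expression line (3.48 ± 0.07 against 2.95), and by adjusted p the lines differed (1.20e-04 for a difference of 0.52). Trp53inp1, a stress protein that aids P53, rose by 2.96 ± 0.07, Ccng1 by 2.14, the death receptors Fas and Tnfrsf10b by 2.06 and 1.68, and Phlda3, an inhibitor of AKT, by 1.57. Mdm2, the ligase that degrades P53, and Zmat3 rose by 1.41 and 1.16 and were called in the re-expression line only, with 0.80 and 0.71 in Mta1-KO.

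The exception among the P53-linked genes was the Ink4/Arf locus. Cdkn2a, which encodes P16 and the P53 activator P19ARF, read -4.07, -4.07 and -3.96 in Mta1-KO/Mta1, -3.76, -4.04 and -3.90 in Mta1-KO, and 0.00, 0.03 and 0.12 in WT. Its neighbour Cdkn2b, encoding P15, fell by 1.90 ± 0.11, against 1.74 in Mta1-KO. The P53 lines lay near WT in both genes. Few other cell cycle genes were called: of 46 members 1 rose, Ccnd1 (1.36 ± 0.07), and 2 fell, the 2 inhibitors above (6.52% called, near the 5.74% of all rows, median -0.18). In DNA damage and repair 1 of 27 rose, the lesion-bypass polymerase Polk (1.07 ± 0.11, and just under a fold of 2 without the first Mta1-KO/Mta1 or the third WT array), and 2 fell, the end-joining ligase Lig4 (-1.90 ± 0.15) and the single-strand binding subunit Rpa2 (-1.57 ± 0.08). The DNA damage list had 11.1% called against 5.74% of all rows, with a median of -0.25, and by value 8 members were higher and 19 lower. Mta1 was the one called member of the 12 of the NuRD complex (8.33%, near the 5.74% of all rows, median -0.28). By value 4 members of the complex were higher and 8 lower.

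Hox genes, the clustered transcription factors that set position along the body axis, fell in 12 of 32 members and rose in none (37.5% called, against 2.37% of all rows lower), with a median of -0.52. Hoxc5 read -0.06, 0.00 and -0.01 in Mta1-KO/Mta1, -0.19, -0.12 and 0.09 in Mta1-KO, and 3.81, 4.10 and 3.80 in WT. Hoxa9 read -0.52, -0.41 and -0.85 in Mta1-KO/Mta1, -0.22, -0.57 and -0.42 in Mta1-KO, and 2.70, 2.76 and 2.53 in WT. Hoxb9 fell by 2.87 ± 0.08, Hoxc4 by 2.83 and Hoxc8 by 2.58. WT was above all 12 other arrays in Hoxc5, Hoxa9 and Hoxb9, and no Hox gene was called between Mta1-KO/Mta1 and Mta1-KO.

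The calls fell in 3 of the 4 clusters. They took 4 of 8 measured Hoxa genes, 4 of 10 Hoxb genes, 4 of 8 Hoxc genes and none of 6 Hoxd genes. Within Hoxa, Hoxb and Hoxc they lay in the middle of the paralogue order, between groups 4 and 10, and no gene of groups 1 to 3 or 11 to 13 was called. Hoxb5 (-1.04) and Hoxa6 (-1.02) were called in the re-expression line only, with -0.81 and -0.97 in Mta1-KO.

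**Figure D3:**
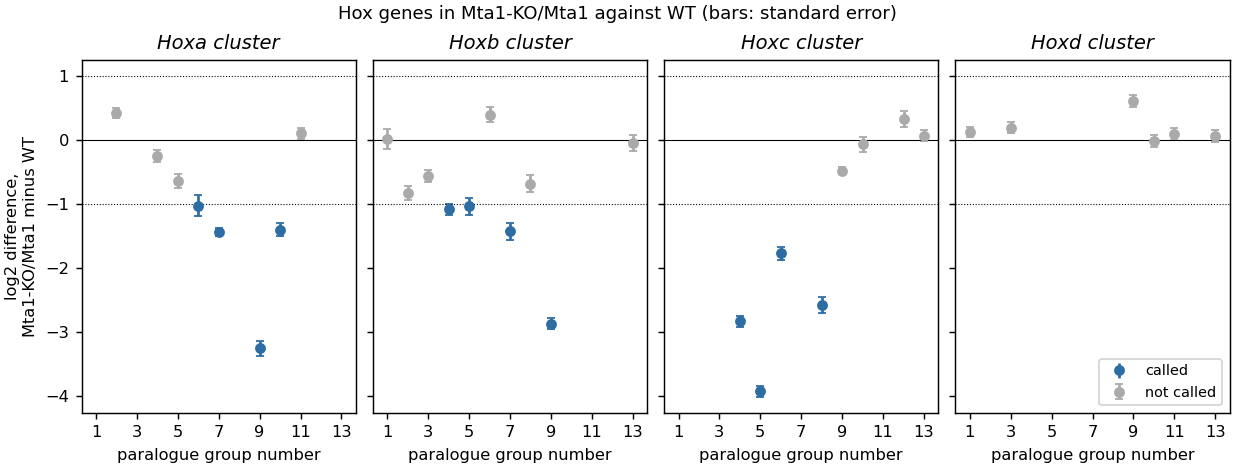
Log2 difference Mta1-KO/Mta1 minus WT with its standard error for each measured Hox gene, by paralogue group number within each cluster; dotted lines mark a fold of 2. The 12 called genes, all lower in Mta1-KO/Mta1, lie between groups 4 and 10 of the Hoxa, Hoxb and Hoxc clusters, and the 6 Hoxd genes stay within the lines.

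Other developmental transcription factors were called in 7 of 63 cases (11.1%, 5 higher and 2 lower, median 0.04). Foxf1, a factor of splanchnic mesoderm, read -0.08, 0.00 and 0.01 in Mta1-KO/Mta1, -0.23, -0.16 and -0.02 in Mta1-KO, and -2.14, -2.13 and -2.47 in WT. Irx2 rose by 2.22 ± 0.10 and Irx1 by 1.23, whereas Irx5, of another Iroquois cluster, fell by 1.37 ± 0.06.

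Secreted antagonists were the largest rises in developmental signaling. In the WNT list 2 of 40 rose and 3 fell (12.5%, median 0.05): the decoys Sfrp2 and Sfrp1 rose by 3.62 ± 0.09 and 1.89 ± 0.09, and the receptors Fzd6 and Fzd3 fell by 1.65 and 1.14. In the TGF-beta and BMP list 5 of 35 rose and 3 fell (22.9%, median 0.04). Fst, follistatin, which traps activin, read 0.38, 0.42 and 0.37 in Mta1-KO/Mta1, -0.01, 0.00 and 0.06 in Mta1-KO, and -2.07, -2.11 and -2.28 in WT. The BMP antagonist Grem1 rose by 2.49 ± 0.06. Id2 and Id3, targets of BMP signaling, fell by 1.11 and 1.04, Id3 in the re-expression line only (-0.23 in Mta1-KO), whereas Id4 rose by 1.62 ± 0.10.

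Growth factors and their receptors rose in 8 of 46 members and fell in 1 (19.6%, median 0.07). Igfbp6 rose by 3.57 ± 0.11 and Gas6, the ligand of AXL, by 1.98, while Igfbp3 fell by 2.51 ± 0.18. Imprinted genes, which are expressed from 1 parental copy and form a network of fetal growth, rose in 5 of 18 members and fell in none (27.8%, median 0.14). Grb10, an inhibitor of insulin and IGF receptors, read -0.66, -0.64 and -0.71 in Mta1-KO/Mta1, -0.06, 0.04 and 0.00 in Mta1-KO, and -4.48, -4.39 and -4.27 in WT. The growth factor Igf2 rose by 2.77 ± 0.13 and Dlk1 by 2.25, both less than in Mta1-KO (3.54 and 3.22). Sgce went the other way, with 0.01, 0.00 and -0.06 in Mta1-KO/Mta1, -1.63, -1.63 and -1.65 in Mta1-KO, and -3.30, -3.24 and -3.14 in WT. Its distance from WT, 3.21 ± 0.07 against 1.59, was thus larger in the re-expression line, and the difference between the lines was called (1.62, adjusted p = 2.11e-09).

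The remaining lists held smaller sets. Lipid and cholesterol genes rose in 6 of 26 members with no fall (23.1%, median 0.05), led by Apod (2.65 ± 0.10, against 4.17 in Mta1-KO), the cholesterol exporter Abca1 (2.60 ± 0.06) and lipoprotein lipase, Lpl (2.02 ± 0.08). Protocadherin beta genes, clustered cell adhesion genes, rose in 9 of 22 (40.9%, median 0.69) against 13 in Mta1-KO. Pcdhb7, one of them, read 2.67, 2.66 and 2.83 in Mta1-KO/Mta1, 3.22, 3.18 and 3.10 in Mta1-KO, and -0.13, -0.09 and -0.03 in WT. Metallothioneins and NRF2 targets rose in 4 of 24 and fell in 1 (20.8%, median -0.06), with Ephx1, epoxide hydrolase, at 2.84 ± 0.12 and Mt1 at 1.84 ± 0.08. Nqo1 and Cbr2 were not called in the re-expression line (0.17 and -0.08 against WT), whereas they differed from WT by 1.70 and 2.52 in Mta1-KO.

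Amino acid transporters fell in 3 of 23 and rose in 1 (17.4%, median -0.33). Beside Slc38a1 these were Slc38a4 (-1.42 ± 0.06) and Slc43a1 (-1.32 ± 0.08), with Slc1a5 higher by 1.24. Immediate early genes split evenly, 3 higher and 3 lower of 24 (25%, median 0.03). Ccn2, connective tissue growth factor, rose by 1.58 ± 0.08, and Dusp1, a phosphatase of MAP kinases, fell by 1.52 ± 0.07. None of the 10 measured ribosomal protein genes was called (0 by limma; 4 passed the adjusted p with no minimum fold), and their median was -0.0018.

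**Figure D4:**
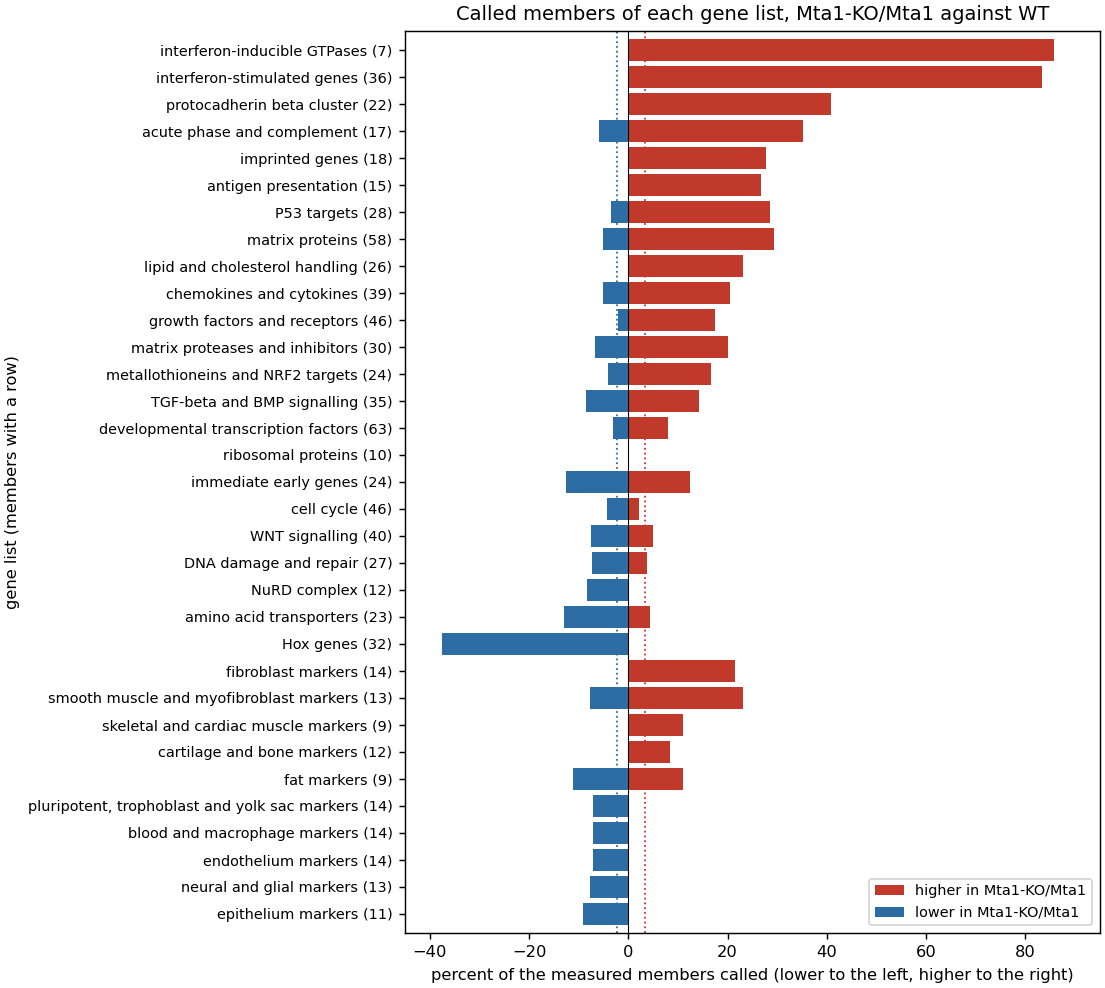
Percent of the measured members of each gene list called higher (right) or lower (left) in Mta1-KO/Mta1 than in WT, with the number of measured members in brackets and dotted lines at the shares of all rows (3.37% higher and 2.37% lower). The 2 interferon lists stand at 83.3% and 85.7% on the right and Hox genes at 37.5% on the left, while the ribosomal proteins have no call.

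What differed from WT in the re-expression line only was a smaller and weaker set. It held 226 rows, 107 higher and 119 lower, which is 23.5% of the 961. Their median size was 1.14, and in Mta1-KO the same rows had a median of 0.69 on the same side. In 200 of the 226 the difference of Mta1-KO from WT passed the adjusted p on the same side and in 152 it was at least 1.5-fold, so for most of these rows the line is drawn by the minimum fold. The difference between the 2 lines was itself called, away from WT, in 24 rows, 17 higher and 7 lower, and 21 of these carry a single gene. These 24 rows are set apart from both WT and Mta1-KO. Both counts rest on the scaling: after quantile normalization 355 rows were called in the re-expression line only, 50 were set apart from both, and 22 of the 24 were among those 50.

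Akr1c18, a 20-alpha-hydroxysteroid dehydrogenase that inactivates progesterone, was the most changed of these. It read 3.76, 4.14 and 4.04 in Mta1-KO/Mta1, -0.01, 0.05 and -0.03 in Mta1-KO, and -0.51, -0.38 and -0.42 in WT. The re-expression line was above all 12 other arrays, 21.3-fold over WT (4.41 ± 0.10, adjusted p = 2.40e-13) and 3.98 above Mta1-KO on the log2 scale (adjusted p = 3.46e-11). P53-KO/Mta1 was the next highest group, with 1.12, 0.96 and 1.24, against -0.29, 0.00 and -0.31 in P53-KO.

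Tmem144, a membrane protein, was below WT in Mta1-KO and above it in the re-expression line. It read 2.22, 2.15 and 2.02 in Mta1-KO/Mta1, -0.09, -0.21 and -0.30 in Mta1-KO, and 0.24, 0.45 and 0.10 in WT. Ctsk, cathepsin K, the collagen-cleaving protease of bone resorption, read 1.35, 1.68 and 1.64 in Mta1-KO/Mta1, 0.02, -0.13 and 0.00 in Mta1-KO, and -0.23, -0.13 and 0.00 in WT. For Ctsk the 4 other groups lay together and the re-expression line stood alone (1.68 ± 0.09, adjusted p = 1.91e-09). Tlr7, the endosomal sensor of single-stranded RNA, read 1.41, 1.23 and 2.03 in Mta1-KO/Mta1, 0.27, 0.43 and 0.14 in Mta1-KO, and -0.08, -0.07 and 0.00 in WT.

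In other genes Mta1-KO lay between the re-expression line and WT. Man1a, a mannosidase that trims N-glycans, read 1.24, 1.19 and 1.24 in Mta1-KO/Mta1, -0.52, -0.41 and -0.46 in Mta1-KO, and -0.96, -1.14 and -1.36 in WT. Mtmr10, a myotubularin-related protein, differed from WT by 2.34 ± 0.12 against 0.88 in Mta1-KO. Hgf, the ligand of the MET receptor, read 1.16, 1.02 and 1.21 in Mta1-KO/Mta1, -0.07, 0.00 and -0.23 in Mta1-KO, and -0.90, -0.95 and -1.23 in WT. For Hgf P53-KO was not far below the re-expression line, at 0.89, 0.77 and 0.79. Plxna2, a semaphorin receptor, differed from WT by 1.91 ± 0.08 against 0.88 in Mta1-KO, and Arhgap6, a GTPase-activating protein of RHOA, by 1.41 ± 0.06 against 0.15.

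Crip1, a small LIM domain protein, is also among the genes set apart, at 0.23, 0.34 and 0.47 in Mta1-KO/Mta1, -0.90, -0.75 and -0.62 in Mta1-KO, and -1.37, -1.11 and -1.01 in WT. Its level in the re-expression line was shared by P53-KO/Mta1, at 0.38, 0.26 and 0.14, while P53-KO read -0.05, 0.04 and 0.00. Crip1 is the third protein-coding gene after Mta1 in the RefSeq gene order. Of the 10 nearest protein-coding genes, 5 on each side, looked up after their values were seen, 9 have a row, and Crip1 was the 1 called; its neighbours Crip2 and Tedc1 differed from WT by 0.14 and -0.50.

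The genes set apart below WT and Mta1-KO include a cytokine and a maker of hyaluronan. Il6, interleukin-6, read -1.22, -1.16 and -1.06 in Mta1-KO/Mta1, 0.18, 0.19 and 0.00 in Mta1-KO, and 0.11, 0.07 and -0.24 in WT. All 12 other arrays were above it (-1.12 ± 0.15 against WT, adjusted p = 2.17e-05; -1.27 against Mta1-KO, adjusted p = 2.15e-05). Has2, a hyaluronan synthase, read -1.0, -1.17 and -0.99 in Mta1-KO/Mta1, 0.24, 0.10 and 0.07 in Mta1-KO, and -0.14, 0.08 and 0.00 in WT. Emilin1, an elastic fibre glycoprotein, differed from WT by -1.35 ± 0.09 against -0.33 in Mta1-KO. H2az2, a histone variant of the H2A.Z type, differed by -1.24 ± 0.12 against -0.24, and Slc16a9, a monocarboxylate transporter family member, by -1.60 ± 0.07 against -0.38. Tmtc4, a membrane protein of the endoplasmic reticulum, differed by -1.05 ± 0.05 against 0.09.

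Mme, the membrane peptidase neprilysin, had its 2 lines on either side of WT. It read -0.94, -1.15 and -1.03 in Mta1-KO/Mta1, 0.73, 0.99 and 0.83 in Mta1-KO, and 0.00, 0.01 and -0.06 in WT. The P53 lines were split in the same way, with -0.88, -1.11 and -0.99 in P53-KO/Mta1 and 1.17, 0.93 and 1.08 in P53-KO. The difference of the re-expression line from WT, -1.02 ± 0.08, was just past a fold of 2, as was that of Has2 (-1.04 ± 0.07), and both fell under it when the second Mta1-KO/Mta1 array was left out (-0.97 and -0.98); Has2 did so also without the second WT array (-0.99).

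**Figure D5:**
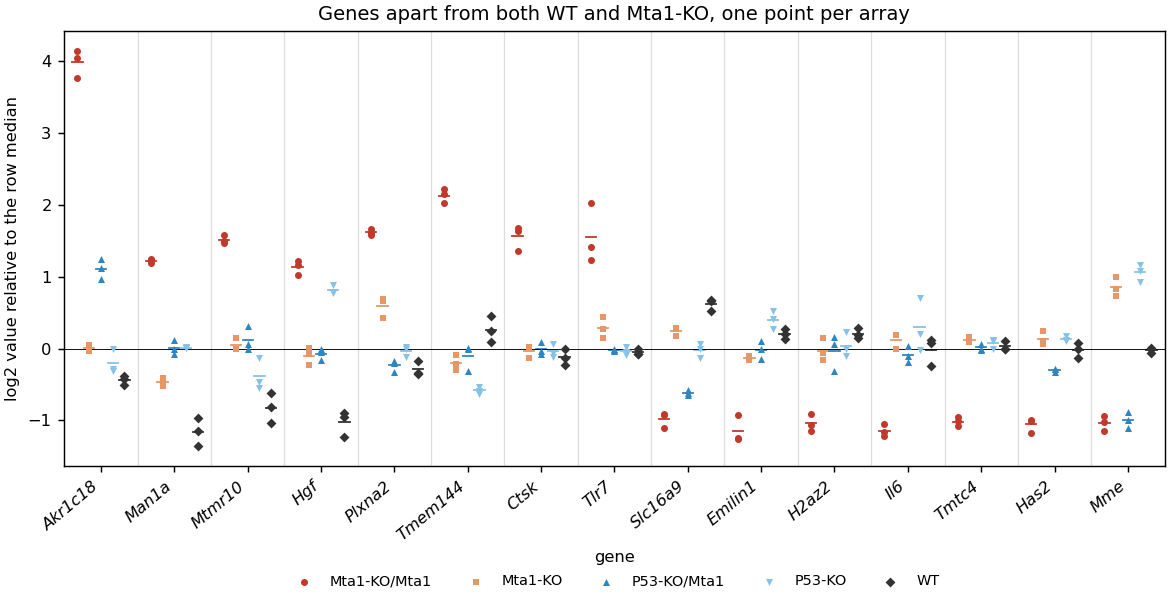
Log2 values relative to the row median for 15 genes set apart from both WT and Mta1-KO, 1 point per array and a short line at the mean of each group of 3. The Mta1-KO/Mta1 points, left within each gene, lie above WT and Mta1-KO in the 8 genes from Akr1c18 to Tlr7 and below both in the 7 from Slc16a9 to Mme, where P53-KO/Mta1 lies level with them only in Mme.

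The Mta1-KO/Mta1 arrays lay above all 12 other arrays in 665 of the 16755 rows and below them in 782. A rule that also asked for a call against each of the 4 other groups, the P53 lines included, held for 18 rows, 14 higher and 4 lower. Beside genes already given these include Gask1b, a secreted Golgi-associated protein, and Aldh1a7, an aldehyde dehydrogenase, both of which were also raised in Mta1-KO. Gask1b read 2.27, 2.26 and 2.25 in Mta1-KO/Mta1, 0.96, 1.07 and 1.08 in Mta1-KO, and -1.75, -1.60 and -1.76 in WT. Aldh1a7 read 2.89, 3.40 and 3.35 in Mta1-KO/Mta1, 1.87, 2.12 and 1.90 in Mta1-KO, and -0.21, -0.17 and -0.14 in WT.

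The other 202 rows called in the re-expression line only, 90 higher and 112 lower, were not called between the 2 lines. The most changed of the rises was Pdpn, podoplanin, a membrane glycoprotein of activated fibroblasts, at 0.78, 0.81 and 0.76 in Mta1-KO/Mta1, -0.22, -0.15 and -0.05 in Mta1-KO, and -1.10, -1.11 and -1.11 in WT. Its difference in Mta1-KO, 0.97, was just under a fold of 2. Fmn1, a formin, rose by 1.76 ± 0.06, the retinal dehydrogenase Aldh1a1 by 1.66 ± 0.07, the acute phase protein Saa3 by 1.64 ± 0.14 and Eps8, an actin regulator, by 1.57 ± 0.06, with 0.68 to 0.92 in Mta1-KO. The most changed falls were Rgs17, a regulator of G protein signaling (-1.60 ± 0.10), Arhgap28 (-1.59 ± 0.05), Tubg1, the gamma-tubulin of microtubule nucleation (-1.45 ± 0.08), and Evi5l (-1.38 ± 0.05).

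In return, 377 rows called in Mta1-KO, 251 higher and 126 lower, were not called in the re-expression line. Of these, 332 still passed the adjusted p on the same side in Mta1-KO/Mta1 against WT, 238 at a fold of at least 1.5, and 72 were called between the 2 lines. Their median was 0.73 on the side of Mta1-KO, against 1.20 in Mta1-KO itself.

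Markers of cell types were checked since WT and the Mta1-/- lines could hold different mixtures of cells. Row-centred values cannot show whether a marker is present, only how it differs, and in bulk RNA fewer cells of a type cannot be told apart from less RNA per cell. Fibroblast markers rose in 3 of 14 members with no fall (21.4% called, against 5.74% of all rows, median 0.11). The summed list, its mean value per array, lay between -0.13 and -0.09 in Mta1-KO/Mta1 and between -0.74 and -0.62 in WT. Thy1, a defining surface marker, read -0.05, 0.03 and 0.00 in Mta1-KO/Mta1, 0.39, 0.43 and 0.60 in Mta1-KO, and -3.57, -4.06 and -3.56 in WT. WT was thus the low group for Thy1, Col1a1 (1.52 ± 0.15 higher in Mta1-KO/Mta1) and Pdgfrb (1.27 ± 0.06), with the P53 lines above it too. Of the 14 members 11 were higher and 3 lower than in WT by value, the lowest being Col3a1 (-0.53, adjusted p = 5.84e-05, under the minimum fold).

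Smooth muscle and myofibroblast markers split. Acta2, smooth muscle actin, rose by 2.31 ± 0.08 and Tpm2 by 1.82 ± 0.06, whereas Tagln fell by 1.37 ± 0.12. Of 13 members 3 rose and 1 fell (30.8% called, against 5.74% of all rows). The mean of this list was -0.37 to -0.28 in Mta1-KO/Mta1 and -0.58 to -0.50 in WT. In the endothelial list Cd34 (-5.39 ± 0.11) was the 1 called member of 14, and by value 10 members were higher and 4 lower in Mta1-KO/Mta1 (median 0.05). The mean of the list, Cd34 included, lay between -0.26 and -0.19 in Mta1-KO/Mta1 and between 0.05 and 0.20 in WT. In blood and macrophages the call was Csf1r (1 of 14, 7.14%, -1.71 ± 0.08) and in epithelium Krt19 (1 of 11, 9.09%, -1.23 ± 0.08). In the neural and the pluripotent lists it was Sox2 (1 of 13, 7.69%, and 1 of 14, 7.14%). These shares, and the 7.14% of the endothelial list, are near the 5.74% of all rows, so nothing is read from them about cell types. The epithelial list names 13 genes, and the 11 counted leave out Cd24a. The paper reports Cd24a as the gene with the largest fall in Mta1-KO. Skeletal and cardiac muscle had 1 of 9 (11.1%, Tnnt2, 1.39 ± 0.09) and fat 1 higher and 1 lower of 9 (22.2%, Lpl and Pparg). Cartilage and bone had 1 of 12 (8.33%, Sox9, 1.02 ± 0.10). The difference of Sox9 was 0.95 to 0.99 without the second Mta1-KO/Mta1, the first WT or the second WT array. The part of such mixtures in the differences above was not tested.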

How the data were processed

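RNA of the 5 groups was hybridised to Affymetrix Mouse Exon 1.0 ST arrays. Per the labels and methods, total RNA was extracted with TRIzol, depleted of ribosomal RNA, amplified and labelled with biotin. The authors deposited log2 values normalized in GeneSpring GX, in which every row has a median of 0 across the 15 arrays (tested here). The sources used here do not say how exon probes were summarized. The centring removed levels, so depth, background and a filter on dim probes were not used here; with 3 arrays per group, their number limits the precision. Of the rows, 14996 carry 1 gene, 1019 several and 740 none (14941 matched to RefSeq by Entrez ID); no gene was named from a row with several.

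In R 4.3.3, limma 3.58.1 was fitted to all 15 arrays with 1 mean per group (10 residual degrees of freedom, 3.46 prior), and p-values of each contrast were adjusted by Benjamini-Hochberg over all 16755 rows. The thresholds for a call, 2-fold and 0.05, are those of the methods. The fit was first tested on simulated data with known changes.

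The 33 gene lists, the named genes and the members were chosen with earlier results of these data known. Members were counted only where a row carries that gene alone, so listed genes without such a row drop out of the shares. For genes with several rows the row of largest spread was used (135 genes; 0 called in opposite directions, 7 called on some rows only). Named genes were Mta1; the 12 largest rises and falls still different from WT; up to 10 of each set apart from both lines; 5 of each otherwise called only in Mta1-KO/Mta1; the 3 most changed called members of each list; and up to 10 beyond all other arrays. List members outside this rule, the neighbours of Mta1 and the Y-linked genes were named with their values known. The processing was varied by the plain t-test that the methods name, by limma on fewer arrays, and by other scalings, minimum folds and a replicate block. Each array of Mta1-KO/Mta1, WT and Mta1-KO was also left out in turn. Python 3.11.15 with matplotlib 3.10.9 drew the figures.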

Additional observations from a re-analysis of the deposited data

Results flagged for a closer look

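Among the rows called against WT in the re-expression line and not in Mta1-KO, 21 single genes also differed between the 2 Mta1-/- lines by a test of the difference itself, the limma contrast of Mta1-KO/Mta1 with Mta1-KO, away from WT. The 8 rows still different in both lines that were called further from WT, Cxcl5 and Sgce among them, are not listed here. The log2 differences between the lines were 3.98 for Akr1c18, 2.33 for Tmem144, 1.68 for Man1a, 1.59 for Ctsk, 1.47 for Mtmr10, 1.30 for Cavin2, 1.29 for U90926, 1.27 for Tlr7, 1.26 for Arhgap6 and 1.23 for Hgf. They were 1.18 for Htr2a, 1.10 for Crip1, 1.05 for Mllt3 and 1.03 for Plxna2. The genes lower in the re-expression line had differences of -1.01 for H2az2, -1.01 for Emilin1, -1.14 for Tmtc4, -1.19 for Has2, -1.22 for Slc16a9, -1.27 for Il6 and -1.89 for Mme.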

How the results depend on the processing

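The counts turned mainly on the minimum fold. With no minimum, 6453 rows were called (2636 higher, 3817 lower), 4587 were still different, 1648 were called in the re-expression line only and 1094 were apart from both WT and Mta1-KO. At 1.5-fold these counts were 2450 (1139 higher, 1311 lower), 1654, 792 and 216, and at 4-fold 260 (194 higher, 66 lower), 238, 22 and 1. Quantile normalization gave 1113 called, 355 called in the re-expression line only and 50 apart. Leaving out each array of Mta1-KO/Mta1, WT and Mta1-KO in turn gave 955 to 1003 called rows, 557 to 583 higher and 383 to 428 lower, 724 to 754 still different, 219 to 259 only in the re-expression line and 23 to 26 apart (arrays of Mta1-KO were added to this after the data were seen). Arrays of the P53 lines were not left out singly. The methods' t-test gave 959 called. Replicate numbers did not pair the arrays (deviations of same-numbered arrays correlated at r = 0.04, -0.14 and -0.38), and a replicate block gave 961. Over 113 named genes and 17 settings, 1913 values kept direction and call, 8 fell under a fold of 2 (Polk, Has2, Mme and Sox9, with 1 array left out) and 0 reversed. List members outside the 113 were not followed one by one, among them Hoxa6, Hoxb5, Id3 and Gvin1, which lie near the threshold. Levels, depth and background are unknown, so no filter on dim probes was run.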
